A study of Mus musculus with 96 samples.

Results

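The comparison described here set 8 cerebellum libraries from Q140 mice at 6 months against the 24 control libraries of the same age, which together made up 32 of the 96 libraries of the series. Members were chosen by their labels alone, as every library titled Q140 at 6 months and every library titled Q20 or wild type (WT) at 6 months. The study asked how the length of the CAG repeat in the huntingtin gene (Htt) relates to microRNA levels, and it took Q20 and WT mice together as controls. The labels give C57BL/6 as the strain of all animals. Q140 mice were heterozygous, with a wild-type Htt allele and a knock-in allele with human HTT exon 1 and the long repeat named in the label, and Q20 mice carried the same kind of knock-in with a short repeat. The WT controls were littermates bred in the Q20 line or in the Q50 line. Each of these 4 groups held 8 libraries, 4 female and 4 male, each from a separate animal. By the labels, Q140 mice were housed with Q140 mice and the controls with WT and heterozygous mice of their own line, whereas the study's methods describe mixed cages of heterozygous and WT mice with no exception for a line, so that the housing of the Q140 mice is not settled by these sources. No WT littermates of the Q140 line were among the libraries, and line and repeat length therefore cannot be told apart.

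MicroRNAs are short RNAs that are cut from a hairpin precursor, the stem-loop, and guide a silencing complex to messenger RNAs with matching sites. The expanded CAG repeat of huntingtin causes Huntington's disease, in which the striatum is the brain region most affected. The cerebellum, a region that coordinates movement and is made up mostly of granule neurons, is known as less affected in the adult-onset disease. The unit measured here was the miRBase stem-loop ID. No source used here pairs these IDs with microRNA names or sequences, so stem-loops are given by ID, with no role, position or sequence, and markers of cell types could not be looked up. In whole tissue, fewer cells of a type and less RNA per cell cannot be told apart.

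Library totals ran from 6148350 to 7077771 estimated counts in Q140 and from 5696037 to 7787553 in the controls, and 56.1% to 60.6% of each library came from its 10 most abundant IDs. A count of 0 allows a level of at most 0.385 to 0.527 CPM (the TMM-scaled count relative to the size of the library), for counting error only. One control, Q20 female replicate 2, had a standardized connectivity to the other libraries (Z.k) of -6.68 and was left out of the fit, which left 23 controls. The lowest Z.k of a kept control was -4.78, in Q20-line WT female replicate 3, whereas Z.k in Q140 ran from -0.57 to 1.63. The library names hold an L tag that the labels do not define. Tag 2 held 3 Q140 and 3 control libraries of the fit, tag 3 held 4 and 12, and tag 4 held 1 and 8.

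In the fit used here, few stem-loops passed the threshold between Q140 and controls, and among these the median fall was larger than the median rise. Other settings of the fit gave from 0 to 27 stem-loops. Of 434 stem-loops tested, 2 were significantly higher and 8 significantly lower in Q140 (edgeR quasi-likelihood test, Benjamini-Hochberg adjusted p between 0.0237 and 0.049), which is 2.3% of those tested, 0.461% higher and 1.84% lower. The median size of the log2 fold change was 0.16 among the 2 that rose and 1.28 among the 8 that fell, against 0.088 over all 434. No stem-loop separated the groups completely (0% of 434). At an unadjusted p under 0.05 there were 86 (19.8%), 40 of them higher and 46 lower. By level, 4 of the 10 lay under 10 CPM in the controls, 3 between 10 and 100 CPM, 1 between 100 and 1000 CPM and 2 above 1000 CPM. The 2 above 1000 CPM were those that rose. The median SE over tested IDs was 0.052 above 1000 CPM and 0.18 under 10 CPM, so smaller changes could be called at high levels. Of the 8 that fell, 6 belonged to a set that varied together, among them MI0000241, which fell little (-0.33). The 2 outside the set were MI0000167, which also fell little (-0.27), and MI0014021.

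**Figure D1:**
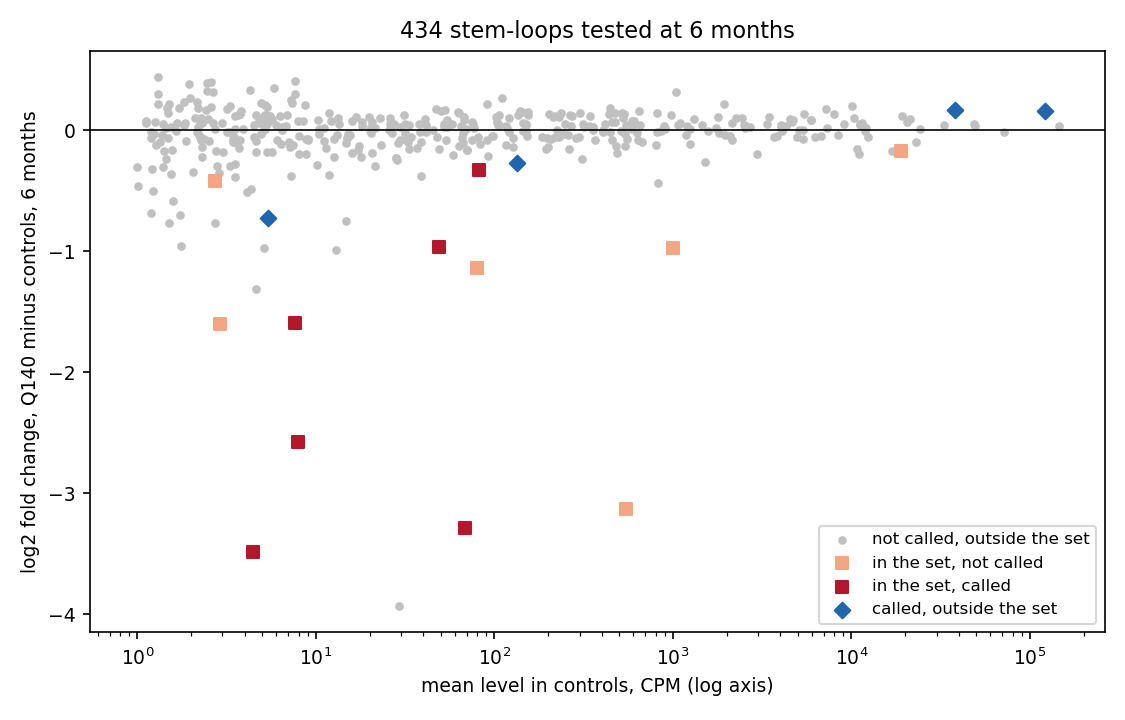
Each point is 1 of the 434 stem-loops tested, with its mean level in the 23 control libraries (CPM, log axis) against its log2 fold change in Q140 at 6 months. Diamonds are the 4 called stem-loops outside a set of 12 that moved together, dark squares the 6 called members of that set, which reach down to -3.49, and light squares its other 6 members.

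The number of calls rested on single libraries. Left out one at a time, Q140 females 1 and 4 each brought it to 0. Q140 female 2, Q140 male 1 and Q20 male 4 each brought it to 2, Q140 female 3 to 3, Q20 female 1 to 1, Q20 male 1 to 4 and the Q50-line WT female 4 to 5. In the other direction it reached 16 without Q140 male 2, 20 to 22 without any one of 5 WT libraries (Q20-line females 1 and 3 and male 1, Q50-line female 1 and male 3) and 30 without Q20-line WT male 2. All 10 called IDs had the same sign within each of the 3 L tags and in each sex. The same libraries gave the calls, so such agreement is in good part built in. Tag 4 held 1 Q140 library, and no share over all 434 is given beside it. In fits within a tag alone, 0 of the 434 stem-loops were called in tag 2 (43 at an unadjusted p under 0.05) and 1 in tag 3 (61 at an unadjusted p under 0.05), and the 1 called in tag 3 was none of the 10.

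Both stem-loops that rose were among the most abundant. MI0000223, second of all tested IDs by control level, stood at 139934, 147503, 116564 and 144980 CPM in the 4 Q140 females and at 120111, 126117, 130978 and 135138 CPM in the 4 males. The 23 controls ran from 103890 to 139263 CPM with a median of 120582. Of the Q140 libraries, 6 lay above the control mean and 3 above every control, all of them female, while female replicate 3 lay below that mean. The group means were 132666 ± 11297 CPM (SD, n = 8) and 122080 ± 8199 CPM (SD, n = 23). These are 13.3% and 12.2% on the TMM scale, which is not the share of raw counts. The log2 fold change was 0.16 (SE 0.04, edgeR adjusted p = 0.0372).

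MI0000157, sixth by control level, was at 39912, 43269, 45896 and 45512 CPM in Q140 females and at 41611, 42844, 39989 and 44606 CPM in Q140 males. The controls ran from 32455 to 42632 CPM with a median of 38371. All 8 Q140 libraries were above the control mean and 5 were above every control. Its log2 fold change was 0.17 (SE 0.05, edgeR adjusted p = 0.0372), from 38265 ± 2464 to 42955 ± 2326 CPM (SD, n = 23 and 8), or from 3.83% to 4.30% on the TMM scale. Q92 and Q50 libraries of the same age, fitted together with the rest, did not follow for either ID, with log2 fold changes of -0.02 and -0.01 for MI0000223 and of -0.02 and 0.01 for MI0000157. The call of MI0000223 ended without Q140 female 1, 2 or 4, Q20 female 1 or Q20 male 4. That of MI0000157 ended without any of the 4 Q140 females, Q140 male 1 or 4, Q20 female 1 or Q20 male 1 or 4.

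Of the stem-loops that fell, MI0000241 had the lowest p. Its level was 64.4, 64.7, 56.7 and 65.6 CPM in Q140 females and 64.2, 65.3, 72.9 and 66.6 CPM in Q140 males. The controls ran from 59.7 to 99.4 CPM with a median of 80.8. The Q140 libraries lay close together, all 8 below the control mean, and 3 of 23 controls were below the highest Q140 library. The means were 65.0 ± 4.41 CPM (SD, n = 8) in Q140 and 82.0 ± 10.3 CPM (SD, n = 23) in the controls, a log2 fold change of -0.33 (SE 0.07, edgeR adjusted p = 0.0237). In Q92 the mean was 70.3 ± 8.70 CPM (SD, n = 7) and in Q50 it was 85.9 ± 8.28 CPM (SD, n = 8), with log2 fold changes of -0.24 and 0.07 that were not called (edgeR adjusted p = 0.751 and 0.895). The call ended without Q140 female 1 or 4 (edgeR adjusted p = 0.051 and 0.070).

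MI0000167 was at 118, 102, 134 and 98.3 CPM in Q140 females and at 124, 120, 115 and 101 CPM in Q140 males, against 105 to 161 CPM with a median of 133 in the controls. All 8 Q140 libraries lay below the control mean and 3 lay below every control. The log2 fold change was -0.27 (SE 0.07, edgeR adjusted p = 0.0372), from 134 ± 15.4 to 114 ± 12.7 CPM (SD, n = 23 and 8). Its log2 fold changes in Q92 (0.04) and Q50 (0.08) did not go the same way, and its call ended without Q140 female 1, 2 or 4, Q140 male 1 or 4, Q20 female 1 or Q20 male 4. For MI0000223, MI0000157, MI0000241 and MI0000167 the deposited counts include reads split between several stem-loops, so these levels depend in part on how the reads were shared.

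**Figure D2:**
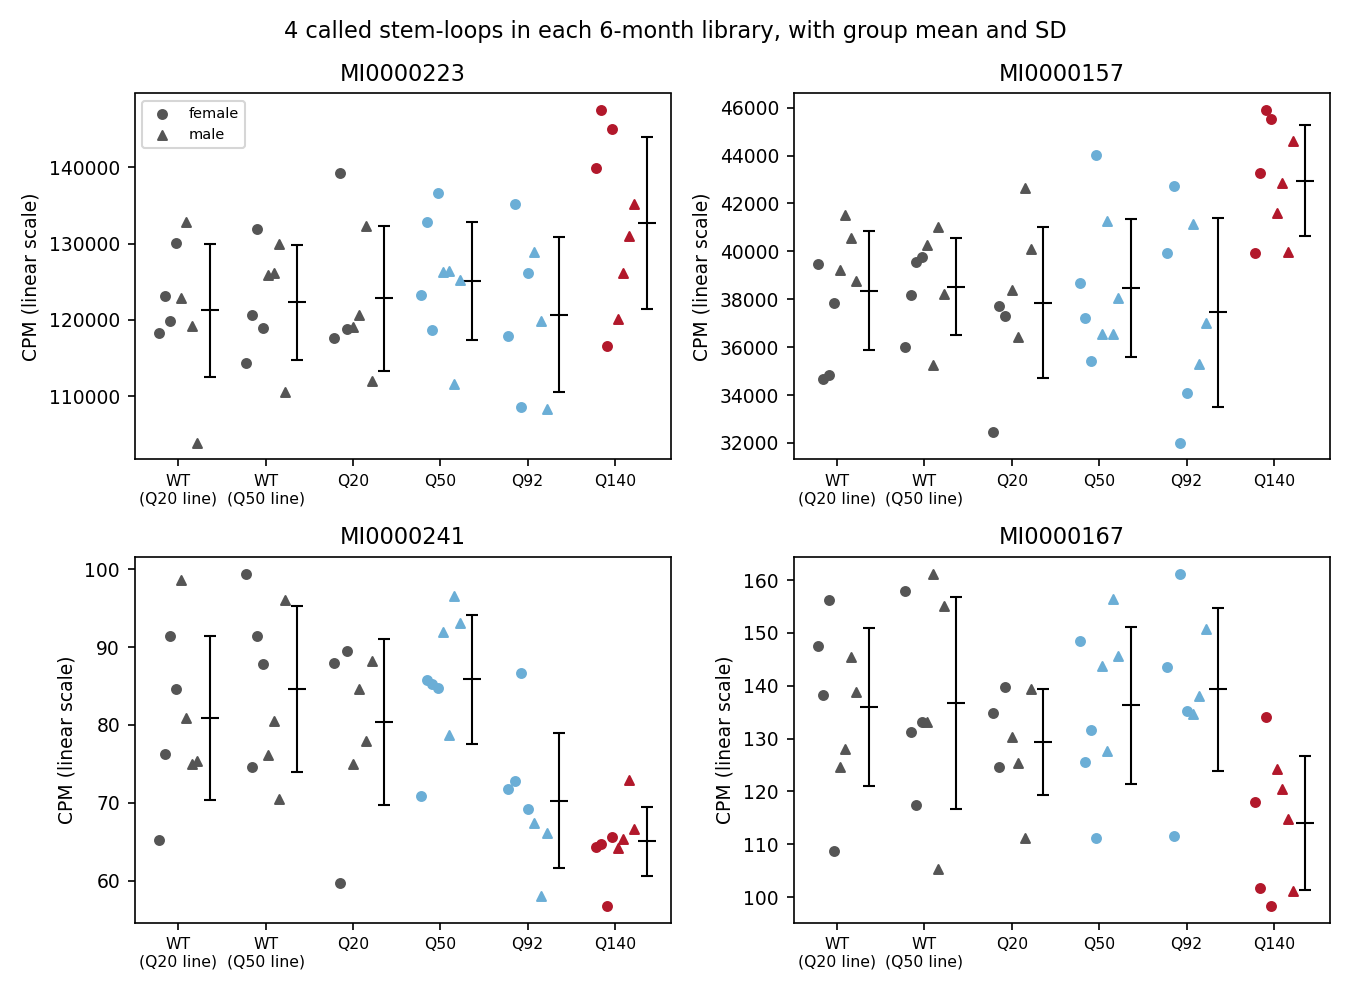
Level in CPM (linear axes that do not start at 0) of 2 stem-loops that rose (MI0000223, MI0000157) and 2 that fell (MI0000241, MI0000167) in each 6-month library of the fit, females as circles and males as triangles, with the group mean and SD as black bars. For MI0000157 5 of the 8 Q140 libraries lie above every control, and for MI0000241 the Q140 libraries sit between 56.7 and 72.9 CPM.

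The largest falls among the called IDs belonged to stem-loops that varied together from mouse to mouse, also among the controls. MI0001638 was at 2.33, 3.61, 4.56 and 1.17 CPM in Q140 females and at 2.72, 6.09, 3.37 and 26.8 CPM in Q140 males. The controls spread from 2.12 to 163.6 CPM with a median of 47.6. Thus 7 of 8 Q140 libraries lay under 10 CPM, as did 5 of 23 controls, and male replicate 4 stood apart from the other Q140 libraries. The means were 6.33 ± 8.40 CPM (SD, n = 8) and 68.1 ± 56.0 CPM (SD, n = 23), a log2 fold change of -3.29 (SE 0.91, edgeR adjusted p = 0.0422). This ID was singled out after its values were seen. Its call ended in 11 of 31 fits that left out 1 library, with log2 fold changes from -4.25 to -3.09 over all 31. Those libraries were Q140 females 1 to 4 and males 1 and 3, Q20 female 1 and males 1 and 4, and the Q50-line WT female 4 and male 4.

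Low libraries of MI0001638 were also frequent in Q92, where 6 of 7 lay under 10 CPM (median 4.90 CPM), and in Q50, where 4 of 8 did (median 24.1 CPM). These counts take no account of the L tag. Tag 3 held 6 Q92 and 2 Q50 libraries, tag 4 held 1 and 6, and tag 2 held 0 of either. The log2 fold changes of Q92 (-1.75) and Q50 (-0.71) shared their controls with that of Q140 and were not called (edgeR adjusted p = 0.862 and 0.924). Within tag 2 the 3 Q140 libraries ran from 3.37 to 6.09 CPM and the 3 controls from 17.7 to 70.1 CPM, with no overlap, as for 15.9% of all 434 stem-loops in that tag (7.37% with Q140 the lower). Within tag 3 the ranges were 1.17 to 26.8 CPM (n = 4) and 2.12 to 163.6 CPM (n = 12), and in tag 4 the single Q140 library had 3.61 CPM against 5.26 to 153.4 CPM in 8 controls.

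A total of 12 stem-loops, MI0001638 included, had a Spearman rho of at least 0.75 with it over the 23 controls. The lowest of them reached 0.762, and the highest of the remaining IDs 0.682. This set was chosen after the values were seen, and the correlations, over libraries of shared tags and like depth, are given as a description. It held 6 of the 8 stem-loops that fell, MI0000241 among them, and none that rose. All 12 had a negative log2 fold change in Q140, with a median of -1.36 and a range from -3.49 to -0.17, against a median of 0.017 over the IDs outside the set. Since the members were chosen to vary with an ID already called lower, a joint fall was in good part built in. Levels differed widely within the set, from 18928 CPM in the controls for MI0000247 (log2 fold change -0.17, edgeR adjusted p = 0.230) to 2.74 CPM for its least abundant member. Among the 12, 2 have counts that include split reads.

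MI0014110 had the largest change of the called stem-loops, on few counts. The 8 Q140 libraries held 1, 0, 2, 1, 0, 3, 0 and 12 counts, the last again in male replicate 4, and 2 of 23 controls were also at 0. The means were 0.359 ± 0.604 CPM (SD, n = 8) and 4.45 ± 3.55 CPM (SD, n = 23), and the fitted log2 fold change was -3.49 (SE 0.99, edgeR adjusted p = 0.049). That call ended in 15 of 31 fits with 1 library left out, which were the 11 named for MI0001638 and those without Q20 female 4, Q20-line WT female 4 or male 3, or Q50-line WT female 3. MI0004300, the more abundant member of like pattern, missed the threshold. It was at 16.6, 39.4, 29.5 and 22.7 CPM in Q140 females and at 29.1, 46.1, 27.1 and 244 CPM in Q140 males, with 21.8 to 1233 CPM in the controls (log2 fold change -3.13, SE 0.92, edgeR adjusted p = 0.0513).

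By library, all 12 members lay below their control median in 7 of 8 Q140 libraries and 11 of them in the remaining one, male replicate 3. Among the 23 controls this number ran from 0 to 12 with a median of 5, and it reached 12 in 4 of them. In Q92 the median was 11 (n = 7, from 2 to 12) and in Q50 it was 10 (n = 8, from 0 to 11). The median log2 fold change of the set was -0.80 in Q92 and -0.40 in Q50, with 0 members called in either, where 0% of all 434 stem-loops were called. The Q20 libraries of 6 months did not stand lower than WT, with a median difference of 0.16. Because the members were chosen to vary with MI0001638, these counts and medians are not separate evidence from its own low level in Q140. What moved these stem-loops together was not tested.

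**Figure D3:**
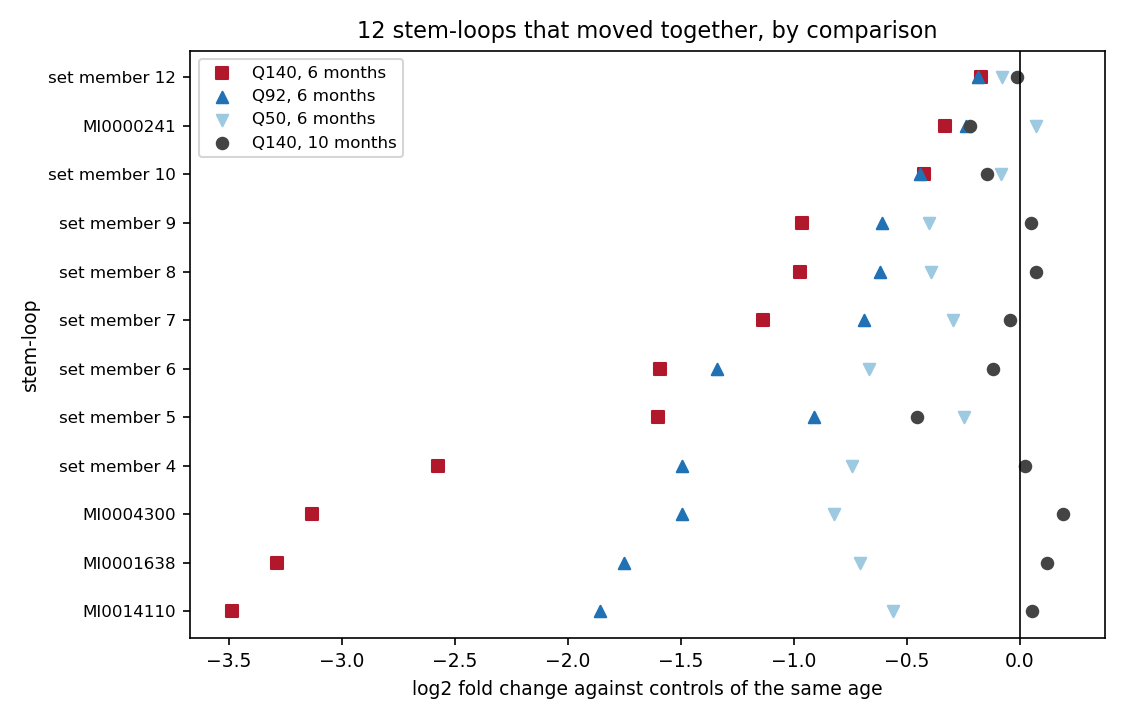
Log2 fold change against controls of the same age (horizontal axis) for the 12 stem-loops that moved together (vertical axis, ordered by the 6-month value in Q140), in Q140, Q92 and Q50 at 6 months and Q140 at 10 months. At 6 months all 12 Q140 values are below 0, with a median of -1.36, while the 10-month values of Q140 have a median of 0.0079.

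At 10 months, in other animals and other L tags, the median log2 fold change of the set in Q140 was 0.0079, and 6 of the 12 members had a negative value. By library, the number of members below their control median had a median of 7.5 in Q140 (n = 8, from 1 to 12) and 5.5 in the controls (n = 24, from 0 to 12), and it reached 12 in 3 libraries of each. MI0001638 was at 5.78, 4.13, 50.3 and 75.2 CPM in the 4 Q140 females and at 134, 7.14, 37.1 and 87.3 CPM in the 4 males, against 3.38 to 277 CPM in 24 controls. Levels under 10 CPM were found in 3 of 8 Q140 libraries and 10 of 24 controls, where 5 of 23 controls were low at 6 months. The log2 fold change was 0.12 (edgeR adjusted p = 0.998), and the 6-month value differed from it by -3.43 (SE 1.16, unadjusted p = 0.0041), which was not significant after adjustment over all 434 (edgeR adjusted p = 0.323). Since no L tag occurs at both ages, tag and age cannot be separated here. Of the 12 members 0 were called at 10 months, when 2.3% of all 434 stem-loops were called.

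**Figure D4:**
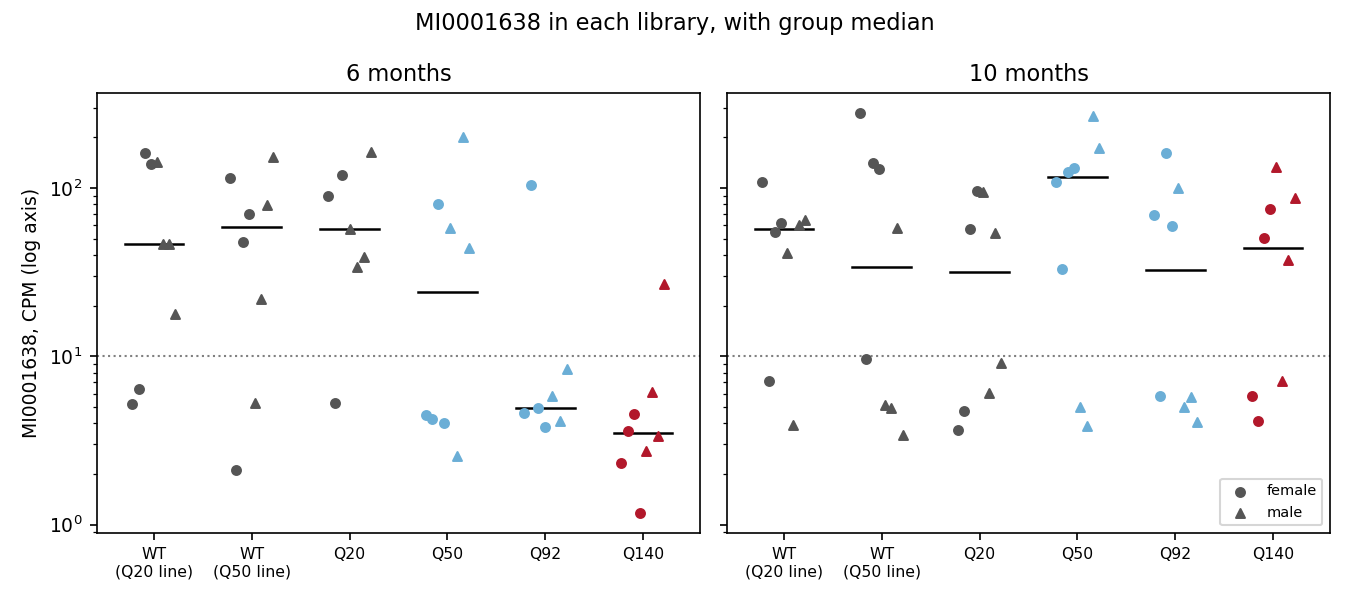
Level of MI0001638 in each library (CPM, log axis) by genotype group at 6 and 10 months, females as circles and males as triangles, with the group median as a line and 10 CPM dotted. At 6 months 7 of 8 Q140 and 5 of 23 control libraries lie under 10 CPM, and at 10 months 3 of 8 and 10 of 24.

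Of the 10 stem-loops called at 6 months, 5 had the same sign at 10 months and 0 were called there. Over all 434, 60.6% had the same sign at both ages and 2.3% were called at 10 months (0.691% higher and 1.61% lower). MI0000223 had the nearer value, with 138155 ± 8933 CPM (SD, n = 8) in Q140 and 120547 ± 13389 CPM (SD, n = 24) in controls at 10 months (log2 fold change 0.19, edgeR adjusted p = 0.0811). MI0000241 was again lower, at 75.0 ± 6.93 against 87.6 ± 16.5 CPM (SD, n = 8 and 24, log2 fold change -0.22, edgeR adjusted p = 0.432). MI0000157 (0.04) and MI0000167 (-0.01) were near 0 at 10 months. For MI0000167 the effects of the ages differed by -0.27 (SE 0.11, unadjusted p = 0.0146, edgeR adjusted p = 0.422). Tested over all 434, the difference of the Q140 effect between 6 and 10 months was called for 0 stem-loops (edgeR, 33 at an unadjusted p under 0.05, and 1 called by DESeq2).

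The effect in males minus that in females was likewise called for 0 stem-loops (edgeR, 19 at an unadjusted p under 0.05, and 2 called by DESeq2). MI0000241 fell by 0.38 in females and by 0.27 in males on the log2 scale, and MI0001638 fell by 4.54 and by 2.42, a difference of 2.12 (SE 1.60, edgeR adjusted p = 0.897). The lowest p belonged to MI0000243, with 0.728, 9.52, 5.03 and 1.03 CPM in Q140 females and 1.43, 0.312, 0.505 and 0.898 CPM in Q140 males (male minus female -3.77, SE 1.11, edgeR adjusted p = 0.246). Within the controls, Q20 and WT differed at 0 stem-loops (edgeR, 34 at an unadjusted p under 0.05, and 0 by DESeq2). The lowest p was that of MI0018006, with a log2 difference of 1.62 (SE 0.43, edgeR adjusted p = 0.130), which passed without the Q50-line WT female 4 (1.93, edgeR adjusted p = 0.011) or without the Q20-line WT male 3 (1.83, edgeR adjusted p = 0.041).

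Several stem-loops lay just outside the threshold at an edgeR adjusted p of 0.0513. MI0000155 was at 8210, 8376, 10531 and 8235 CPM in Q140 females and at 9008, 8957, 8598 and 8904 CPM in Q140 males, all above the control mean of 8027 CPM and 4 above every control (log2 fold change 0.13, SE 0.04). MI0000697 was less even, with 5394 ± 324 CPM in controls and 5821 ± 451 CPM in Q140 (SD, n = 23 and 8, log2 fold change 0.13, SE 0.04). MI0000408 was lower, at 9.23 ± 0.945 against 11.9 ± 1.75 CPM (SD, n = 8 and 23, log2 fold change -0.37, SE 0.11), with all 8 Q140 libraries below the control mean and none below every control.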

How the data were processed

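Small RNA of the cerebellum was sequenced as short single-end strand-specific reads. Alignment (STAR, mm10) and counting (HTSeq) were done by the authors after clipping (versions not stated). The submitters' processing notes list CASAVA 1.8.2. Estimated counts, not normalized, were deposited in one table and FPKM values in another (scaled by library total and stem-loop length), for 1187 stem-loop IDs. Estimated counts were rounded. In 268 IDs, with 69.3% of all counts, values lay more than 0.001 from a whole number in some library, and 152 of these were tested.

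The 434 stem-loops that reached 10 counts in 8 or more libraries at both ages were tested with edgeR 4.0.16 in R 4.3.3 (TMM, Benjamini-Hochberg threshold of 0.05). The fit held the 46 libraries of 6 months with Z.k of at least -5, the limit of the study's methods (8 Q140, 23 controls, 7 Q92 and 8 Q50), with genotype, sex and L tag, the last in place of the study's batch covariate. The 10-month fit held 48. Differences between ages and between sexes were interaction terms. FPKM entered only an alternative with limma 3.58.1, and DESeq2 1.42.0 was another. No libraries of 6 months were alike within counting noise (lowest chi-square over degrees of freedom of any pair 17.2).

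The members, lists and tests were chosen with earlier results of these data known. All called IDs, the IDs of lowest p in each other comparison and those nearest the threshold were to be named. Since 0 IDs could be matched to a name, the lists and cell type markers written by name, and the rules on shared seeds and neighbouring loci, were not applied, and at most 2 called IDs in each direction are given, besides IDs singled out after their values were seen (MI0001638, MI0014110, MI0014021, MI0000247 and MI0000404).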

Additional observations from a re-analysis of the deposited data

Results flagged for a closer look

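Of 36 groups of 4 to 10 libraries examined for a library far from the rest of its group, 6 had one. Chance gives about 1 in 20 for independent, normally spread groups, which these are not, since all 6 concerned MI0001638 and MI0014110, which vary together, in the same 3 libraries. MI0001638 stood at 26.8 CPM in Q140 male replicate 4, at 104 CPM in Q92 female replicate 2 and at 201 CPM in Q50 male replicate 3, all at 6 months and all above the rest of their group. MI0014110 stood at 1.8 CPM, 7.19 CPM and 13.4 CPM in those libraries. The log2 fold change of MI0001638 ran from -4.25 to -3.09 over the fits with 1 library left out, and was furthest from 0 without Q140 male replicate 4.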

How the results depend on the processing

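The count of 10 stem-loops called in Q140 at 6 months (86 at an unadjusted p under 0.05) was 10 with RLE factors and 10 with all libraries kept, 13 with a filter on 6-month libraries alone, 12 without a sex term and 7 with a robust fit. It was 24 with DESeq2 (8 higher and 16 lower), 27 with DESeq2 after single outlying values were replaced (9 and 18), 23 without the L tag (8 and 15) and 27 with only the Q140 and control libraries in the fit (6 and 21). All 10 called IDs were among those of both DESeq2 fits and of the fit on Q140 and controls alone, and 9 of them among those without the L tag. It was 18 (0 and 18) with limma on log2(FPKM + 1) and 18 (0 and 18) with limma on log2(FPKM + 0.1). It was 5 with a mean count of at least 50, 0 with no low count filter (969 tested, 113 at an unadjusted p under 0.05), 5 against WT alone (4 of the 10 among them) and 2 against Q20 alone, 0 within tag 2 and 1 within tag 3. None of the 10 was among those called against Q20 alone (edgeR adjusted p from 0.0615 to 0.138) or within tag 3 (edgeR adjusted p from 0.0815 to 0.232). It ran from 0 to 30 as each library was left out.

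Of the alternatives chosen after the data were seen, the count was 12 with split-read stem-loops left out and 21 when libraries with Z.k below -3 were left out. The only such library in the 6-month fit was Q20-line WT female 3 (Z.k -4.78), whose removal alone also gave 21. The count was 0 both without the 12 co-moving stem-loops in the test and with the level of MI0001638 as a covariate. That covariate is itself a called ID, and with it MI0000241 was at -0.15 (edgeR adjusted p = 0.478) and MI0000404 turned from -0.96 to 0.051 (edgeR adjusted p = 0.919). Called IDs outside the set kept the sign of their log2 fold change. MI0000223 was at 0.12 with the covariate and at 0.14 without the 12 in the test, against 0.16. MI0000157 was at 0.15 in both, against 0.17, and MI0000167 at -0.26 and -0.28, against -0.27. MI0014021 was at -0.70 and -0.74, and ran from -0.85 to -0.65 over the fits with 1 library left out. For these IDs the edgeR adjusted p ran from 0.274 to 0.360 with the covariate and from 0.0601 to 0.0755 without the 12. With called IDs taken out of the test, the adjustment alone can raise the adjusted p of the rest. The cause of these changes was not tested.

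Replicate numbers did not pair the animals (mean correlation of same-numbered libraries -0.19 to 0.21, 1 of 8 over 0.1). With the replicate block the count was 0 (79 at an unadjusted p under 0.05), the adjusted p of the called IDs ran from 0.0519 to 0.0613, and the age difference, the sex difference and Q20 against WT kept a count of 0.

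The age difference had 1 call and the sex difference 2 calls with DESeq2. With a library left out both stayed at 0, and Q20 against WT ran from 0 to 2. Low counts limit stem-loops such as MI0014110.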

Other observations

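MI0025035 had the lowest p for the difference between ages, with widely spread levels in both. At 6 months the 8 Q140 libraries held 0 to 32 counts (at most 4.66 CPM) and the 23 controls ran from 0 to 458 CPM with a median of 0.283 CPM, the highest being Q50-line WT male replicate 2. The control left out of the fit, Q20 female replicate 2, stood at 1974 CPM. At 10 months Q140 ran from 0 to 2192 CPM with a median of 2.95 CPM, and 24 controls from 0 to 228 CPM with a median of 2.07 CPM. Of the Q140 libraries at 10 months, male replicate 1 (2192 CPM) and female replicate 4 (1988 CPM) stood far above the rest. The next was female replicate 1 at 9.91 CPM. The Q140 effects at 6 and 10 months were -3.93 (edgeR adjusted p = 0.178) and 4.84 (edgeR adjusted p = 0.0118), and they differed by -8.87 (SE 2.46, edgeR adjusted p = 0.230). The counts of this stem-loop include split reads.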
